A study of Mus musculus with 28 samples.

Results

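The comparison set corticosterone-treated cultures at day 9 against vehicle cultures at day 6, 3 days younger, to ask whether cultures that had recovered from the hormone resembled younger untreated ones. Its libraries were chosen by label, 4 of each group and 8 of the 28 in the series. All came from DC2, an immortalized line from mouse epididymal epithelium, grown on collagen in medium with fetal bovine serum. The day 9 group had received corticosterone at 500 ng/ml in ethanol when the monolayer was confluent and was collected after 6 days of recovery. The day 6 group had received ethanol at 0.1%. Medium was replaced on days 3 and 6 and cells were collected at these changes, so both groups were taken 3 days after their last fresh medium. Days in culture, the number of medium changes and hormone history differ together between the groups and cannot be told apart. Vehicle cultures of days 0, 3 and 9 and corticosterone cultures of days 3 and 6, also 4 libraries each, served as landmarks. The corticosterone day 3 cultures had 0 days of recovery and the corticosterone day 6 cultures had 3.

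Corticosterone is the main glucocorticoid of rodents. It acts through the glucocorticoid receptor, a transcription factor that raises genes such as Fkbp5, Tsc22d3 and Zbtb16 and lowers many inflammatory genes. When oxygen is short, the transcription factor HIF escapes the prolyl hydroxylases that mark it for destruction and raises genes of glucose uptake, glycolysis and oxygen sensing. The epididymal epithelium makes the fluid in which sperm mature.

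Deposited log2 CPM (counts scaled to a common library total, on a log2 scale) covered 13129 entries. All but 1, which has no gene symbol, went into the tests (13128). No library was a near copy of another. The labels do not say whether replicates are separate cultures, so p-values measure the spread between these libraries. Fewer cells of a type and less RNA per cell cannot be told apart in such bulk samples. Of 11 listed markers of epididymal principal cells 2 were measured, and several defining ones, among them Gpx5 and Lcn5, were not among the tested entries. Aqp9, a water and glycerol channel of these cells, differed by -0.42 between corticosterone day 9 and vehicle day 6 and did not pass the test, and Krt18, an epithelial keratin, differed by 0.16 and did not pass it.

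Corticosterone day 9 cultures lay nearer to vehicle day 6 than to any other vehicle day, but not as near as replicates of one group lay to each other. The root mean square log2 difference over all genes between a corticosterone day 9 and a vehicle day 6 library had a median of 0.444 over 16 pairs (0.396 to 0.483). Against vehicle day 9 the median was 0.485, against vehicle day 3 it was 0.504, and against vehicle day 0 it was 0.823. The distance to corticosterone cultures of earlier days was larger than to vehicle days 3, 6 and 9, with a median of 0.635 to corticosterone day 6 and 0.715 to corticosterone day 3. Pairs within the corticosterone day 9 group had a median of 0.333, and pairs within vehicle day 6 one of 0.358. Vehicle day 6 was itself nearer to vehicle day 9 (median 0.396) than to corticosterone day 9. Its median distance to vehicle day 3 was 0.465. Each of the 4 corticosterone day 9 libraries was on average nearest to vehicle day 6, from 0.413 for replicate 4 to 0.460 for replicate 5. The same libraries lay 0.462 to 0.491 from vehicle day 9 and 0.498 to 0.517 from vehicle day 3.

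Across all genes, 1373 were higher and 1314 were lower at corticosterone day 9 than at vehicle day 6 (limma, Benjamini-Hochberg adjusted p under 0.05, 10.5% and 10% of those tested). These 2687 genes, 20.5% of the table, were mostly small differences: 94 were at least 2-fold higher and 36 at least 2-fold lower. Unless another comparison is named, rises and falls below are differences of corticosterone day 9 from vehicle day 6. They are not changes over days within the treated cultures. The 95% confidence interval lay wholly within 1.5-fold for 10592 genes, 80.7% of all. In 2007 genes all 4 corticosterone day 9 libraries stood above all 4 vehicle day 6 libraries (15.3%), and in 1794 all stood below (13.7%). Side by side, corticosterone day 9 against vehicle day 9 gave 1849 higher (14.1%) and 1887 lower (14.4%) genes, 28.5% of those tested. Corticosterone day 9 against vehicle day 3 gave 2285 higher (17.4%) and 2159 lower (16.4%) genes, or 33.9%. Vehicle day 9 against vehicle day 6 gave 616 higher (4.69%) and 413 lower (3.15%) genes, or 7.84%. These comparisons share libraries with each other, so their counts are set side by side and are not independent. Leaving out 1 of the 8 libraries gave 972 to 1301 higher and 962 to 1140 lower genes, and with a weight per library there were 2399 higher and 2140 lower.

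**Figure D1:**
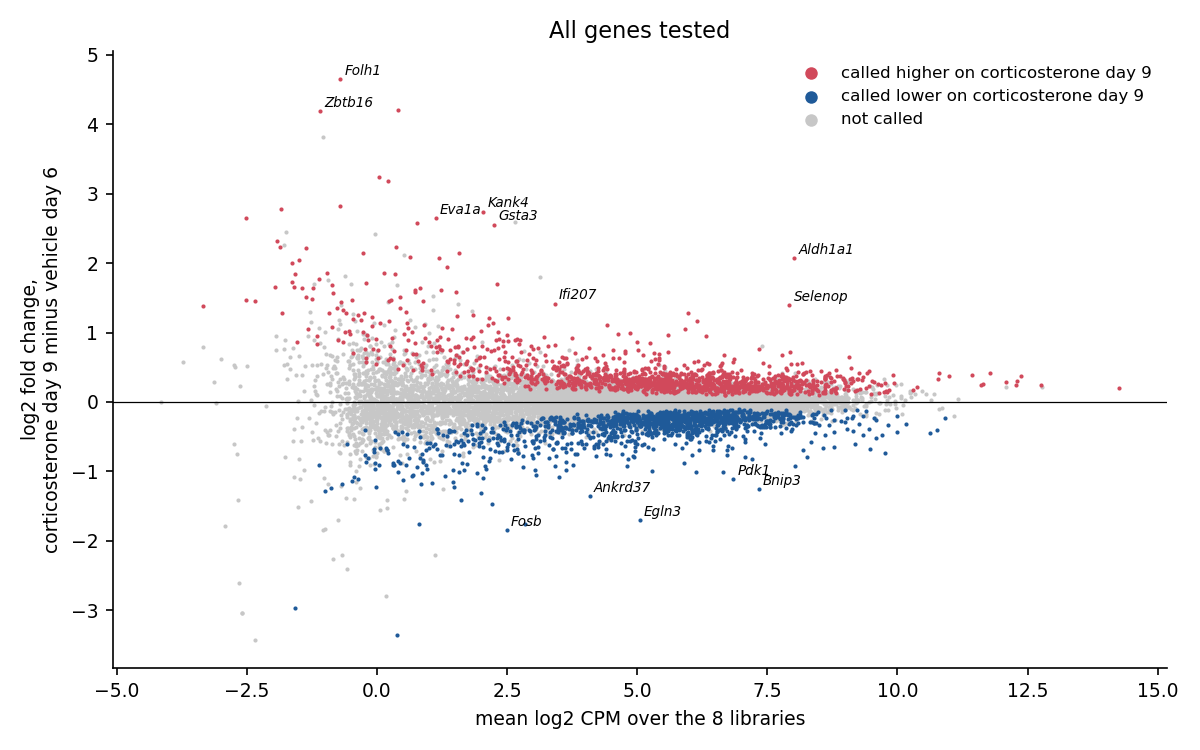
Log2 fold change (corticosterone day 9 minus vehicle day 6) against mean log2 CPM over the 8 libraries, 1 point per gene, coloured by the limma call at an adjusted p under 0.05. The 1373 higher and 1314 lower genes lie mostly within 1 log2 unit of 0, and Aldh1a1 and Selenop stand apart among highly expressed genes.

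Culture time was read from libraries in neither group. Genes that changed at least 2-fold between vehicle day 3 and vehicle day 9 (365 that rose and 81 that fell, among 38.1% of genes called at any size) defined an axis with vehicle day 3 at 0 and vehicle day 9 at 1. Corticosterone day 9 libraries stood at 0.52 ± 0.03 and vehicle day 6 libraries at 0.623 ± 0.038 (SD, n = 4 each). All 4 corticosterone day 9 libraries, at 0.479 to 0.548, were below all 4 vehicle day 6 libraries, at 0.586 to 0.664 (exact 2-sided permutation test, p = 0.0286, the smallest that 4 against 4 allows). Corticosterone day 6 libraries had stood at 0.121. On another axis, from vehicle day 0 to vehicle day 3 (1212 genes that rose and 864 that fell at least 2-fold, among 69.2% called at any size), corticosterone day 9 stood at 0.855 ± 0.012 and vehicle day 6 at 0.952 ± 0.01 (exact permutation p = 0.0286). This axis does not order vehicle days after day 3, since vehicle day 9 stood at 0.948, and corticosterone day 6 stood at 1.00. The differences from vehicle day 6 were -0.103 on the day 3 to day 9 axis and -0.097 on the day 0 to day 3 axis. The first was -0.165 with 1 CPM added before the log. The same difference was -0.157 without genes called at any size between corticosterone day 3 and vehicle day 3. That left 179 of the 446 genes of the axis.

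The axis of the hormone ran from vehicle day 3 at 0 to corticosterone day 3 at 1 (478 genes that rose and 428 that fell at least 2-fold, among 49% called at any size). Here corticosterone day 9 stood at 0.235 ± 0.009 and vehicle day 6 at 0.026 ± 0.015 (SD, n = 4 each), a difference of 0.209 (exact permutation p = 0.0286), or 0.123 as a median over genes. The 3 positions were the only such tests, and their Benjamini-Hochberg adjusted p was 0.0286 for each. Corticosterone day 6 had stood at 0.903. The 4 corticosterone day 9 libraries spanned 0.229 to 0.249, and none overlapped vehicle day 6.

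**Figure D2:**
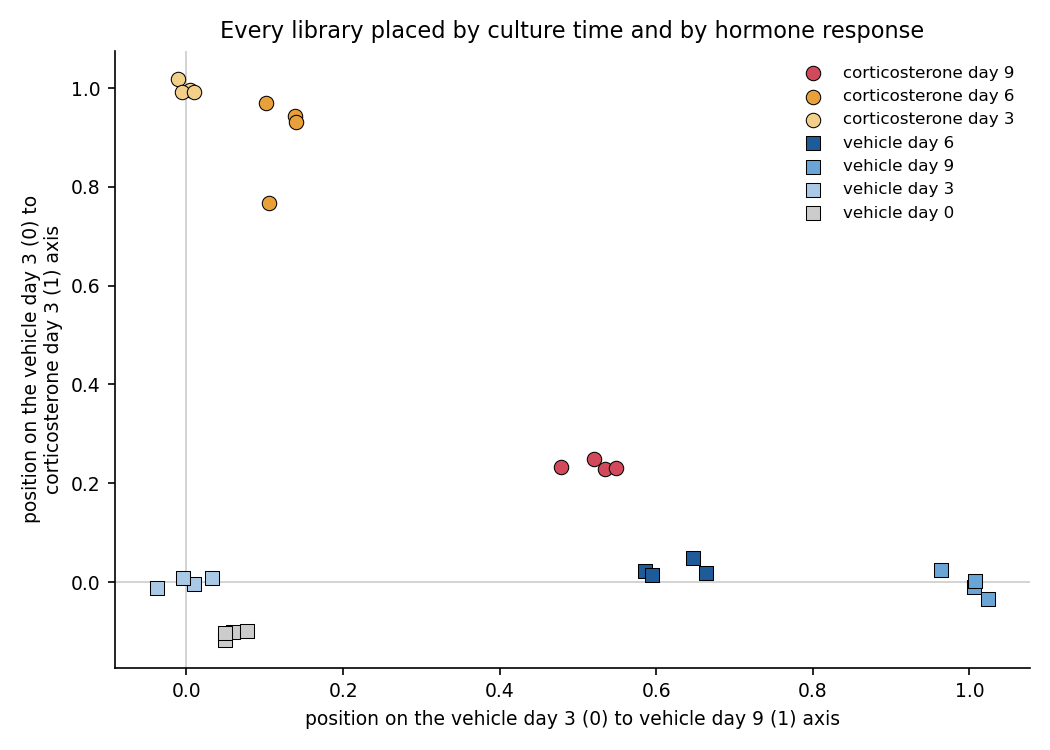
Each of the 28 libraries by its position on the vehicle day 3 to day 9 axis (horizontal) and on the vehicle day 3 to corticosterone day 3 axis (vertical), both without units, with 4 points per group. Corticosterone day 9 libraries sit at 0.479 to 0.548 across and near 0.235 up, and vehicle day 6 libraries at 0.586 to 0.664 across and near 0.026 up.

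Of the 365 that rose with vehicle culture time, 97 were lower (26.6%, against 10% of all genes) and 35 were higher (9.59%, against 10.5%) at corticosterone day 9 than at vehicle day 6, with a median difference of -0.175. Of the 81 that fell with time, 23 were higher (28.4%) and 3 were lower (3.7%), with a median of 0.163. Of the 478 genes that corticosterone raised at day 3, 168 were still higher (35.1%) and 19 were lower (3.97%), with a median of 0.249. Of the 428 that it lowered, 83 were lower (19.4%) and 28 higher (6.54%), with a median of -0.07. The median over all genes was 0.

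Several of the largest rises were in genes with higher means at corticosterone day 3 than at vehicle day 3. Aldh1a1, a retinaldehyde dehydrogenase, had 9.06, 9.00, 9.06 and 9.09 log2 CPM at corticosterone day 9 and 6.97, 7.02, 6.97 and 6.97 at vehicle day 6. The groups were 2.07 ± 0.09 apart (log2 fold change ± SE, adjusted p = 1.75e-14), and Aldh1a1 had averaged 11.32 at corticosterone day 3. Selenop, a secreted selenium carrier, had 8.60, 8.47, 8.77 and 8.64 log2 CPM at corticosterone day 9 and 7.20, 7.28, 7.28 and 7.15 at vehicle day 6. It rose by 1.40 ± 0.10 (adjusted p = 1.02e-09), with no overlap between the groups, against means of 10.06 at corticosterone day 3 and 7.81 at vehicle day 3.

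Gsta3, a glutathione S-transferase, had 3.6, 3.49, 3.62 and 3.42 log2 CPM at corticosterone day 9 and 1.32, 1.10, 0.55 and 0.95 at vehicle day 6. Its rise was 2.55 ± 0.17 (adjusted p = 9.56e-11). Gsta3 had averaged 5.57 at corticosterone day 3 and 5.87 at corticosterone day 6. Kank4, of a family that links adhesions to the cytoskeleton, had 3.29, 3.73, 3.23 and 3.39 log2 CPM at corticosterone day 9 and 1.09, 0.20, 0.08 and 1.30 at vehicle day 6. The difference of 2.74 ± 0.36 (adjusted p = 5.95e-06) was the largest among the 12 rises that the rule on level and overlap picked. Kank4 had averaged 4.34 at corticosterone day 3 and 5.54 at corticosterone day 6. Ifi207, an interferon-inducible gene of the p200 family, had 4.03, 4.08, 4.27 and 4.12 log2 CPM at corticosterone day 9 and 2.67, 2.81, 2.72 and 2.63 at vehicle day 6. It rose by 1.42 ± 0.15 (adjusted p = 2.28e-07).

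The other large rises were Eva1a (2.64), Coro2a (2.14), the keratins Krt7 (2.07) and Krt8 (1.94), Actr3b (1.70), Klhl13 (1.61) and Akr1c12 (1.59), all with the 4 corticosterone day 9 libraries above the 4 vehicle day 6 libraries. These and the rises of Kank4 and Gsta3 were of low-level genes: with 5 CPM added before the log they were 0.54 for Klhl13 to 1.24 for Gsta3 and passed the test. Aldh1a1 and Aldh1a7, the Gsta genes and the Akr1c genes have close copies, and how the counting divided reads between them is not given in the sources used here.

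**Figure D3:**
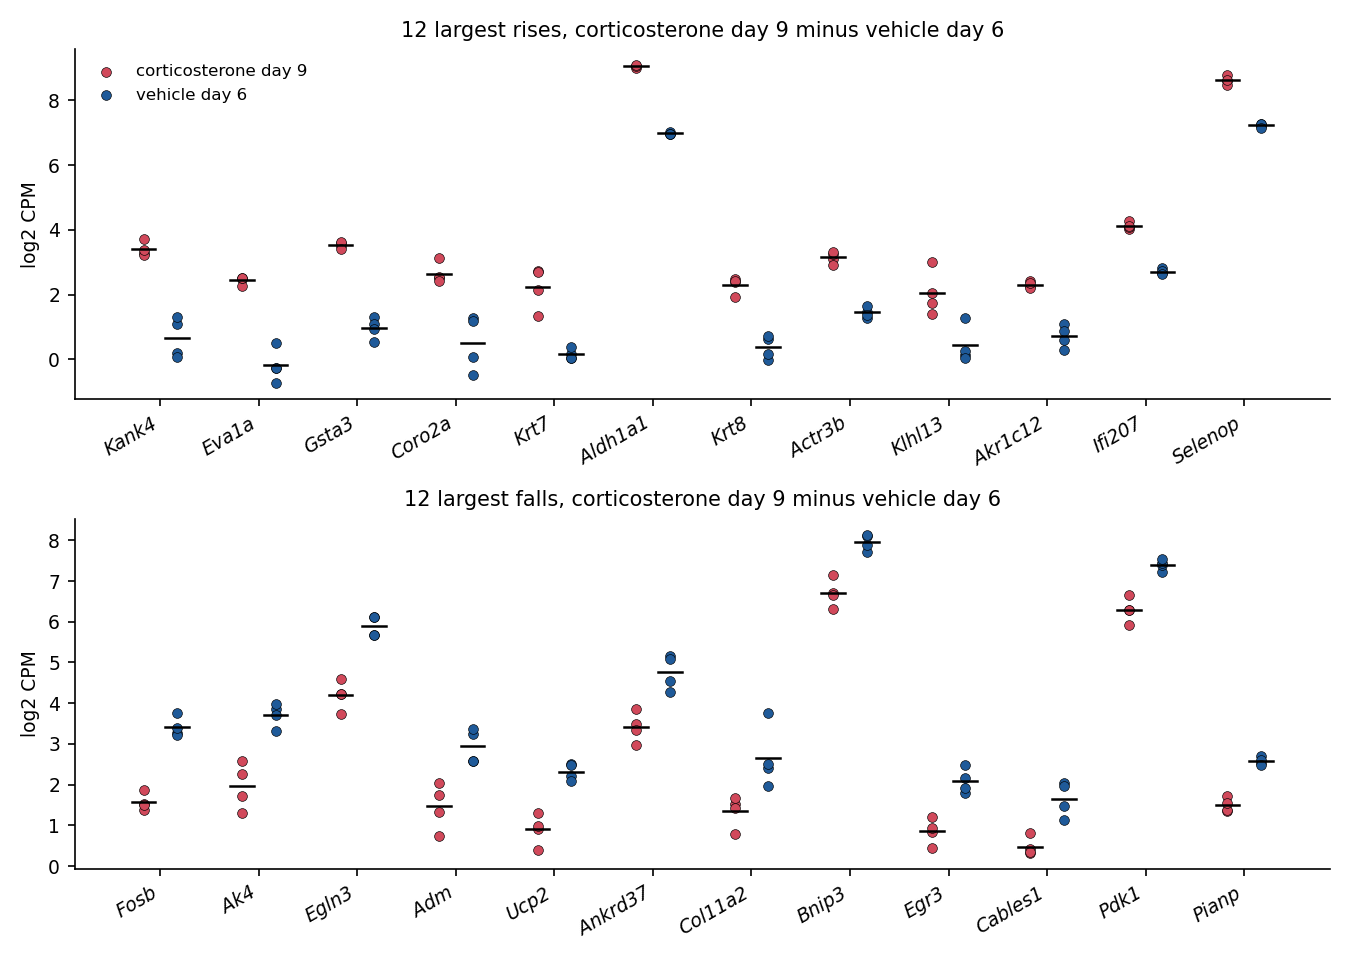
Log2 CPM of the 12 largest rises (top) and 12 largest falls (bottom) in each library, corticosterone day 9 on the left and vehicle day 6 on the right of each gene, with black bars at the mean of 4 libraries. In all 24 genes the groups do not overlap, which the rule for naming them required.

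Textbook glucocorticoid targets were mixed. Fkbp5, a receptor co-chaperone that the receptor itself raises, had 6.92, 6.84, 6.97 and 6.89 log2 CPM at corticosterone day 9 and 6.49, 6.34, 6.20 and 6.34 at vehicle day 6. It was higher by 0.57 ± 0.12 (adjusted p = 0.00157), without overlap, having averaged 9.23 at corticosterone day 3 and 6.18 at vehicle day 3. Zbtb16, a zinc finger repressor, had 1.21, 0.96, 1.21 and 0.58 log2 CPM at corticosterone day 9 and -3.68, -3.28, -2.20 and -3.62 at vehicle day 6. Its difference of 4.18 ± 0.35 (adjusted p = 9.35e-09) rests on vehicle values near the table's lowest value of -4.15, and with 5 CPM added before the log it was 0.45.

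Tsc22d3, which encodes the anti-inflammatory protein GILZ, averaged 4.83 at corticosterone day 9 and 4.72 at vehicle day 6 (adjusted p = 0.629). Sgk1, a kinase of ion transport, averaged 3.82 and 3.79 (adjusted p = 0.953) in the same order, after 9.38 at corticosterone day 3. Klf9 differed by 0.08 ± 0.10 (adjusted p = 0.619). Per1, a clock gene with receptor binding sites, had 5.25, 5.35, 5.18 and 5.33 log2 CPM at corticosterone day 9 and 5.75, 5.62, 5.62 and 5.57 at vehicle day 6. It was lower by 0.36 on the log2 scale (-0.36 ± 0.08, adjusted p = 0.00277), and had averaged 7.41 at corticosterone day 3, against 5.39 at vehicle day 3. Nr3c1, the receptor gene, averaged 7.79 at corticosterone day 9 and 8.09 at vehicle day 6, with a difference of -0.30 ± 0.10 (adjusted p = 0.035). That call was lost without vehicle replicates 3, 4 or 6 or corticosterone replicates 3, 4 or 6, at -0.26 to -0.30.

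Of 36 measured receptor targets, 8 rose (22.2%, against 10.5% of all genes) and 3 fell (8.33%, against 10%, and 5 genes without vehicle day 6 replicate 4), and the median difference was 0.07. Among them Cavin2, a caveolar protein, rose by 0.70 ± 0.07 (adjusted p = 4.85e-08) and Dusp1, a MAP kinase phosphatase, fell by 0.48 on the log2 scale (-0.48 ± 0.07, adjusted p = 2.62e-05). Fam107a rose by 2.21 ± 0.35 (adjusted p = 6.07e-05), a call that ended with 5 CPM added before the log (0.19, adjusted p = 0.228).

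Other genes raised most at day 3 kept a difference. Folh1, a glutamate carboxypeptidase, had 1.40, 1.5, 1.92 and 1.65 log2 CPM at corticosterone day 9 and -4.15, -4.15, -1.02 and -2.80 at vehicle day 6, where replicates 3 and 4 sat at the lowest value. Aldh1a7 had 1.88, 1.59, 1.84 and 1.86 log2 CPM at corticosterone day 9 and -1.09, -1.46, -1.15 and -1.83 at vehicle day 6, and rose by 3.17 ± 0.29 (adjusted p = 3.86e-08). Spink8, an epididymal serine protease inhibitor, averaged 0.81 at corticosterone day 9 and -1.34 at vehicle day 6 and rose by 2.15 ± 0.30 (adjusted p = 1.27e-05). With 5 CPM added the differences were 0.64 for Folh1, 0.65 for Aldh1a7 and 0.32 for Spink8.

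Among the genes lowered most at day 3, the outcomes were divided. Cdh6, a cadherin, had 6.31, 6.34, 6.34 and 6.38 log2 CPM at corticosterone day 9 and 7.08, 7.16, 7.05 and 7.14 at vehicle day 6. It was lower by 0.77 on the log2 scale (-0.77 ± 0.09, adjusted p = 6.28e-07), with no overlap. Rsad2, the antiviral protein viperin, averaged 2.55 at corticosterone day 9 and 3.53 at vehicle day 6 and fell (-0.98 ± 0.18, adjusted p = 0.000301; -0.60 with 5 CPM added). Spp1, or osteopontin, averaged 4.43 at corticosterone day 9 and 4.32 at vehicle day 6 (adjusted p = 0.841), having averaged -0.86 at corticosterone day 3. Samd5 and Siglecg differed by -0.23 and -0.12 and did not pass the test. Vcam1, an adhesion molecule, was lower (-0.53 ± 0.15, adjusted p = 0.0135), a call lost without vehicle day 6 replicate 3 (-0.47, adjusted p = 0.0505).

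Genes of the hypoxia response were lower at corticosterone day 9. Of 29 measured, 23 fell (79.3%, against 10% of all genes), and the median difference was -0.66. The mean over the list was 5.40 log2 CPM at corticosterone day 9, 6.1 at vehicle day 6 and 6.74 at vehicle day 9, with 4.69 at vehicle day 3. It was 5.02 at corticosterone day 3 and 4.96 at corticosterone day 6. The 4 corticosterone day 9 libraries spanned 5.17 to 5.59 and the 4 vehicle day 6 libraries 5.94 to 6.25. For 21 of the 29 genes the corticosterone day 9 mean lay between those of vehicle day 3 and vehicle day 6, and for 5 it lay below vehicle days 3, 6 and 9. Ndrg1, Ddit4, Hilpda, Stc2, Rora and Selenbp1 did not pass the test.

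Promoters of 4 of these genes are shown because they are among the 12 largest falls and have 1 start in the RefSeq table of GRCm38.p6. Egln3, an oxygen-sensing prolyl hydroxylase, lies at chr12:54203825-54204124 (minus strand), and Adm, the vasodilator peptide adrenomedullin, at chr7:110627407-110627706 (plus strand). Ankrd37, an ankyrin repeat gene, lies at chr8:45999801-46000100 (minus strand), and Bnip3, a mitophagy receptor, at chr7:138909457-138909756 (minus strand). Each window is 300 bases across the start, written 5′ to 3′, and capitals mark ACGTG or GCGTG, the core of the HIF site, on either strand (as CACGT or CACGC on the other).
Egln3: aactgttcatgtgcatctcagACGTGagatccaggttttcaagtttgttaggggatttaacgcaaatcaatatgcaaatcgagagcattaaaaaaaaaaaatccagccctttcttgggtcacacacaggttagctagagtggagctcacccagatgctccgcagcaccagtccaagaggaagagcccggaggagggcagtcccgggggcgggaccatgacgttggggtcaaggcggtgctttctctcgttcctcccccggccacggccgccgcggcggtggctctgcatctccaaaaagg
Adm: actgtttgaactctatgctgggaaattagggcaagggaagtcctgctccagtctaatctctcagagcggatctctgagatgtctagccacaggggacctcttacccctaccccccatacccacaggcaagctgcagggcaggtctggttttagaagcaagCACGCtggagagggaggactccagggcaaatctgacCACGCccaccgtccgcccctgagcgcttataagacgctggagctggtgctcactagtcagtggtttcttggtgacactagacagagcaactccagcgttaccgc
Ankrd37: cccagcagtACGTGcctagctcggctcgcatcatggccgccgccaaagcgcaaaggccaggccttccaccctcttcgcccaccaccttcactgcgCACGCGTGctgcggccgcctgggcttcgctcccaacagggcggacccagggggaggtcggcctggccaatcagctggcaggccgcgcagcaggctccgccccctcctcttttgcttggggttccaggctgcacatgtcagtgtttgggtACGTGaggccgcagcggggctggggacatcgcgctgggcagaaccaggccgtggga
Bnip3: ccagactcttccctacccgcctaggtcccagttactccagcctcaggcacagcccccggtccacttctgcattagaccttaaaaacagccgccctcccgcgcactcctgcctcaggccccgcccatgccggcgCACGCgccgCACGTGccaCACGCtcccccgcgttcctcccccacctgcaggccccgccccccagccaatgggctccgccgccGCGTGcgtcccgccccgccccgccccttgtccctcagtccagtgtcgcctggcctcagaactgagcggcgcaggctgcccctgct
Counted on both strands, the core had 1 match in the Egln3 window, 2 in that of Adm, 4 in that of Ankrd37, where those in CACGCGTG overlap, and 5 in that of Bnip3. In the Bnip3 window 2 of the 5 are the same CACGTG, read on either strand, which is also an E-box. The core, ACGTG or GCGTG on either strand, was in 82.9% of 35 promoters of the list's 25 matched genes. It was in 61.1% of 12887 promoters of genes tested and in 43.8% of all 32851 promoters. The promoters of the 25 genes include alternative starts, and a match is a description of the letters only.

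Egln3 had 4.22, 4.21, 4.60 and 3.74 log2 CPM at corticosterone day 9 and 5.67, 5.67, 6.12 and 6.12 at vehicle day 6. It fell by 1.71 on the log2 scale (-1.71 ± 0.14, adjusted p = 9.74e-09), with corticosterone replicate 5 the highest and replicate 6 the lowest of their group. Egln1, another prolyl hydroxylase, had 6.84, 6.72, 7.06 and 6.55 log2 CPM at corticosterone day 9 and 7.41, 7.46, 7.78 and 7.80 at vehicle day 6 (-0.82 ± 0.08, adjusted p = 1.11e-07). The same 2 corticosterone libraries were at the ends of its range, and the groups did not overlap.

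Bnip3 had 6.71, 6.67, 7.16 and 6.3 log2 CPM at corticosterone day 9 and 7.71, 7.88, 8.11 and 8.14 at vehicle day 6 (-1.25 ± 0.13, adjusted p = 1.28e-07). Ankrd37 had 3.48, 3.33, 3.85 and 2.98 log2 CPM at corticosterone day 9 and 4.29, 4.54, 5.16 and 5.09 at vehicle day 6 (-1.36 ± 0.23, adjusted p = 0.000178). Adm had 1.32, 1.75, 2.04 and 0.75 log2 CPM at corticosterone day 9 and 2.57, 2.58, 3.23 and 3.36 at vehicle day 6 (-1.48 ± 0.35, adjusted p = 0.00357). In each of these genes corticosterone replicate 5 was the highest and replicate 6 the lowest of their group, and vehicle replicates 5 and 6 were above vehicle replicates 3 and 4.

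Pdk1, a kinase that inhibits pyruvate dehydrogenase, averaged 6.29 at corticosterone day 9 and 7.40 at vehicle day 6. It fell by 1.11 on the log2 scale (-1.11 ± 0.12, adjusted p = 2.62e-07). Loxl2, a lysyl oxidase, fell by 0.79 (-0.79 ± 0.06, adjusted p = 5.84e-09), and Mxi1, a MYC antagonist, by 0.56 (-0.56 ± 0.05, adjusted p = 3.86e-08). Ak4, a mitochondrial adenylate kinase, averaged 1.97 and 3.72 in the same order (-1.75 ± 0.61, adjusted p = 0.0411). Its call was lost without the intensity trend and without each library in turn except corticosterone replicate 4, with adjusted p up to 0.122 in the 7 lost cases. Adm, with 5 CPM added, was at -0.70.

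Glycolytic genes were lower as well: 18 of 23 fell (78.3%, against 10% of all genes), with a median of -0.39. Pgk1, a glycolytic kinase, had 9.43, 9.37, 9.67 and 9.15 log2 CPM at corticosterone day 9 and 9.94, 10.03, 10.31 and 10.26 at vehicle day 6 (-0.73 ± 0.09, adjusted p = 1.89e-06). Ldha, the lactate dehydrogenase subunit, had 9.19, 9.16, 9.34 and 8.84 log2 CPM at corticosterone day 9 and 9.66, 9.77, 9.96 and 9.85 at vehicle day 6 (-0.68 ± 0.08, adjusted p = 2.05e-06). Neither gene's groups overlapped. The glucose transporter Slc2a1 fell by 0.45 (-0.45 ± 0.05) and Pfkl, the liver phosphofructokinase subunit, by 0.80 (-0.80 ± 0.10). The list mean was 7.46 log2 CPM at corticosterone day 9, 7.83 at vehicle day 6, 8.36 at vehicle day 9 and 6.92 at vehicle day 3. In 19 of the 23 genes the corticosterone day 9 mean lay between vehicle day 3 and vehicle day 6.

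Mitochondrial genes differed the other way. Of 65 nuclear-encoded genes of oxidative phosphorylation 43 rose (66.2%, against 10.5% of all genes), with a median of 0.31, and of 24 genes of the tricarboxylic acid cycle 21 rose (87.5%), with a median of 0.28. Cycs, or cytochrome c, had 7.28, 7.21, 7.18 and 7.24 log2 CPM at corticosterone day 9 and 6.67, 6.77, 6.83 and 6.79 at vehicle day 6 (0.46 ± 0.07, adjusted p = 2.43e-05). Idh3a, a subunit of isocitrate dehydrogenase, had 7.49, 7.47, 7.53 and 7.55 log2 CPM at corticosterone day 9 and 7.12, 7.10, 7.17 and 7.08 at vehicle day 6 (0.39 ± 0.04, adjusted p = 1.11e-07). In both genes all 4 corticosterone libraries were above all 4 vehicle libraries.

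Cs, citrate synthase, rose by 0.33 ± 0.05, Mdh2, malate dehydrogenase, by 0.41 ± 0.07 and Pdha1, a pyruvate dehydrogenase subunit, by 0.31 ± 0.04. These genes did not lie between vehicle ages: in 58 of the 65 oxidative phosphorylation genes and 21 of the 24 cycle genes the corticosterone day 9 mean was above those of vehicle days 3, 6 and 9. The oxidative phosphorylation list averaged 6.49 log2 CPM at corticosterone day 9 and 6.18 at vehicle day 6. It averaged 6.95 at corticosterone day 3 and 6.82 at corticosterone day 6. The day 3 mean was lifted by corticosterone day 3 replicate 4, at 7.358, with the next library of that group at 6.885. Of 26 genes of fatty acid oxidation 10 rose (38.5%, against 10.5% of all genes) and 3 fell (11.5%, against 10%). The falls were 1 without vehicle replicate 3 or without corticosterone replicate 5 or 6. The list included Etfdh, which passes the pathway's electrons to ubiquinone (0.35 ± 0.04), and Hadh, one of its dehydrogenases (0.28 ± 0.05). Ucp2, an inner membrane carrier also on the list, fell (-1.42 ± 0.26, and -0.54 with 5 CPM added).

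Of 11 transcripts of the mitochondrial genome 7 rose (63.6%, against 10.5% of all genes). The share of CPM from the mitochondrial genome was 6.28 to 6.99% at corticosterone day 9 and 5.40 to 5.81% at vehicle day 6. The complex I subunit mt-Nd1 had 11.88, 11.93, 12.05 and 12.07 log2 CPM at corticosterone day 9 and 11.55, 11.58, 11.63 and 11.48 at vehicle day 6 (0.42 ± 0.05, adjusted p = 2.25e-06). After quantile normalization 1 of the 11 was higher and the list's median was 0, with mt-Nd1 at 0.03 and mt-Co2, a complex IV subunit, at -0.02. Of 47 mitochondrial ribosome genes 20 rose (42.6%), with a median of 0.24, and Mrpl16, of the large subunit, rose by 0.42 ± 0.06. The count was 13 without vehicle day 6 replicate 4.

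Of 65 cytosolic ribosomal protein genes 33 rose (50.8%, against 10.5% of all genes), with a median of 0.29 and the mean above vehicle day 6 in all 65. The vehicle day 9 mean was above vehicle day 6 in all 65 as well. Rplp0, a stalk protein, had 11.07, 11.03, 10.94 and 10.99 log2 CPM at corticosterone day 9 and 10.56, 10.59, 10.61 and 10.59 at vehicle day 6 (0.42 ± 0.06, adjusted p = 8.36e-06), and its groups did not overlap. The count for the list fell to 15 without vehicle replicate 3, 17 without vehicle replicate 4 and 19 without vehicle replicate 6. It was 17 without corticosterone replicate 3 and 19 without corticosterone replicate 4 or 6, and 65 with a weight per library.

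**Figure D4:**
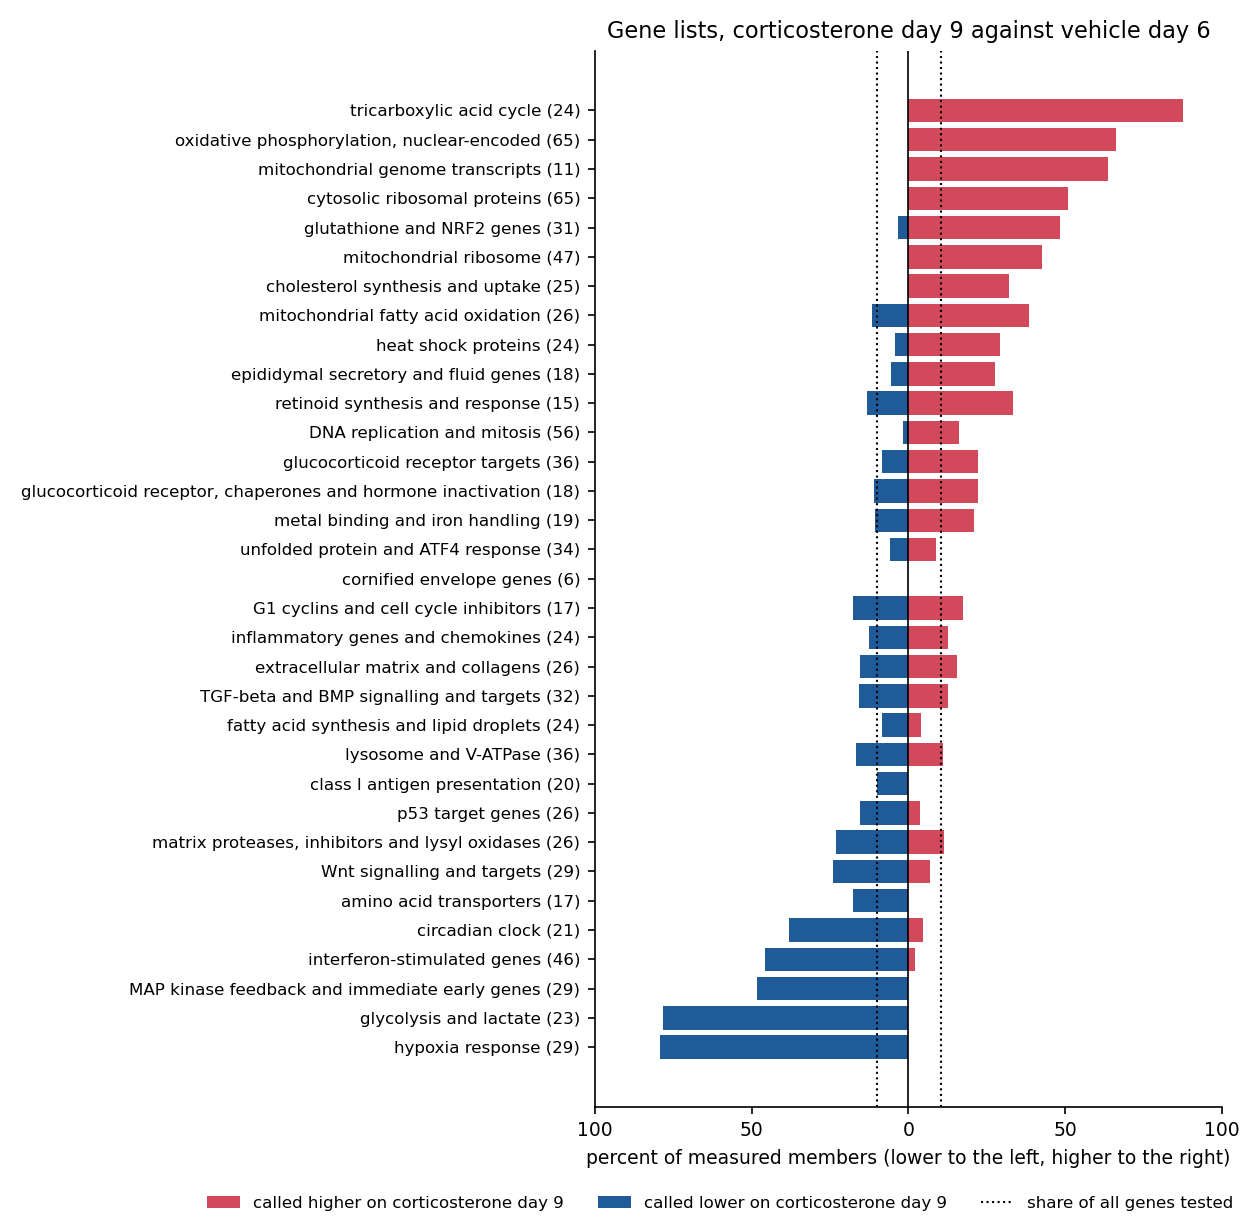
Percent of the measured members of each pathway list (number in brackets) called higher (right) or lower (left) at corticosterone day 9 than at vehicle day 6, with dotted lines at the 10.5% and 10% of all genes. The tricarboxylic acid cycle list has 87.5% higher, and the hypoxia response and glycolysis lists have 79.3% and 78.3% lower.

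Immediate early genes, which growth factor signals switch on within minutes, and feedback genes of the MAP kinase pathway formed a list of 29. Of these 14 fell (48.3%, against 10% of all genes) and 15 did not pass, with a median of -0.28 and 5 means above vehicle day 6. Fosb, an AP-1 subunit, had 1.52, 1.87, 1.38 and 1.51 log2 CPM at corticosterone day 9 and 3.26, 3.23, 3.39 and 3.77 at vehicle day 6. It fell by 1.84 on the log2 scale (-1.84 ± 0.19, adjusted p = 1.78e-07, and -0.97 with 5 CPM added), the largest of the named falls, and its vehicle day 9 mean was 2.81. Dusp5, a nuclear ERK phosphatase, had 3.89, 4.00, 4.13 and 4.07 log2 CPM at corticosterone day 9 and 4.76, 4.59, 4.84 and 4.91 at vehicle day 6 (-0.75 ± 0.09, adjusted p = 1.17e-06). Hbegf, an EGF receptor ligand, was lower in all 4 libraries (-0.35 ± 0.06, adjusted p = 5.06e-05). Egr3, a zinc finger factor of the same class, fell (-1.23 ± 0.27, and -0.44 with 5 CPM added). The list averaged 4.78 log2 CPM at corticosterone day 9 and 5.17 at vehicle day 6.

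Of 46 interferon-stimulated genes 21 fell (45.7%, against 10% of all genes), 1, Ifi207, rose and 24 did not pass. The median was -0.25, and 8 of the 46 means were above vehicle day 6. Oasl2, an antiviral oligoadenylate synthetase-like gene, had 5.56, 5.58, 5.44 and 5.55 log2 CPM at corticosterone day 9 and 6.13, 6.25, 6.23 and 6.19 at vehicle day 6 (-0.67 ± 0.09, adjusted p = 9.06e-06). Ddx58, the RNA sensor RIG-I, fell (-0.42 ± 0.07, adjusted p = 0.000116). In 26 of the 46 genes the corticosterone day 9 mean was below those of vehicle days 3, 6 and 9. Of 24 inflammatory genes and chemokines 3 rose and 3 fell (12.5% each way, near the share of all genes). Cxcl12, a chemokine, was higher (0.27 ± 0.04, adjusted p = 5.82e-05) and Ccl2, which attracts monocytes, was lower (-0.33 ± 0.09, adjusted p = 0.0136), and 5 fell with median centring or without vehicle replicate 4, while 1 rose without corticosterone replicate 6. Of 20 class I antigen presentation genes 2 fell (10%, the share of all genes), H2-Q4 (-0.52 ± 0.08) and H2-K1 (-0.37 ± 0.06), whose reads are hard to tell from those of their relatives.

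Of 17 G1 cyclins and cell cycle inhibitors 3 rose and 3 fell (17.6% each way, against 10.5% and 10% of all genes), with a median of 0.02, and 6 rose with a weight per library. The rises were the D-type cyclins, which carry cells through G1. Ccnd1 had 6.70, 6.63, 6.34 and 6.76 log2 CPM at corticosterone day 9 and 5.66, 5.35, 5.07 and 5.24 at vehicle day 6 (1.28 ± 0.14, adjusted p = 5.18e-07). Ccnd2 had 6.73, 6.71, 6.88 and 6.87 log2 CPM at corticosterone day 9 and 5.88, 5.95, 5.86 and 5.73 at vehicle day 6 (0.94 ± 0.09, adjusted p = 3.08e-08). Ccnd3 rose by 0.23 ± 0.06 (adjusted p = 0.00958). Ccnd1 and Ccnd2 stood above every vehicle day 6 library and above their vehicle day 9 means of 5.76 and 5.93. Cdkn1a, the cell cycle inhibitor p21, was lower (-0.54 ± 0.07, adjusted p = 1.21e-05), as was Cdk2, a kinase of S phase entry (-0.36 ± 0.04, adjusted p = 1.72e-06).

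Genes of replication and mitosis were close between the groups: the 95% interval of all 56 lay within 1.5-fold. Of them 9 rose (16.1%, against 10.5% of all genes) and 1 fell (1.79%, against 10%). The list averaged 6.39 log2 CPM at corticosterone day 9 and 6.31 at vehicle day 6, after 5.31 at corticosterone day 3 and 5.36 at corticosterone day 6. At vehicle day 9 it averaged 6.41. The mean was above vehicle day 6 in 52 of the 56 genes at vehicle day 9 and in 43 at corticosterone day 9. Kif20a, a mitotic kinesin, was higher (0.24 ± 0.06, adjusted p = 0.00679) and E2f1, an S phase factor, lower (-0.23 ± 0.06, adjusted p = 0.00475). The count of rises was 5 without vehicle replicate 4, 2 without vehicle replicate 6, 4 without corticosterone replicate 6 and 16 with only these groups in the fit.

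Cholesterol synthesis lay between vehicle day 6 and vehicle day 9. Of 25 genes 8 rose against vehicle day 6 (32%, compared with 10.5% of all genes), with a median of 0.18. Cyp51, a sterol demethylase, had 7.71, 7.79, 7.84 and 7.86 log2 CPM at corticosterone day 9 and 7.50, 7.46, 7.49 and 7.54 at vehicle day 6 (0.31 ± 0.05, adjusted p = 0.000114). Idi1, an isoprenoid isomerase, rose by 0.41 ± 0.08 (adjusted p = 0.00067). The list averaged 6.28 log2 CPM at corticosterone day 9 and 6.11 at vehicle day 6, with 6.47 at vehicle day 9 and 5.12 at corticosterone day 3. In 20 of the 25 genes the corticosterone day 9 mean lay between vehicle day 6 and vehicle day 9. The count was 4 without vehicle replicate 6 and 14 with a weight per library.

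**Figure D5:**
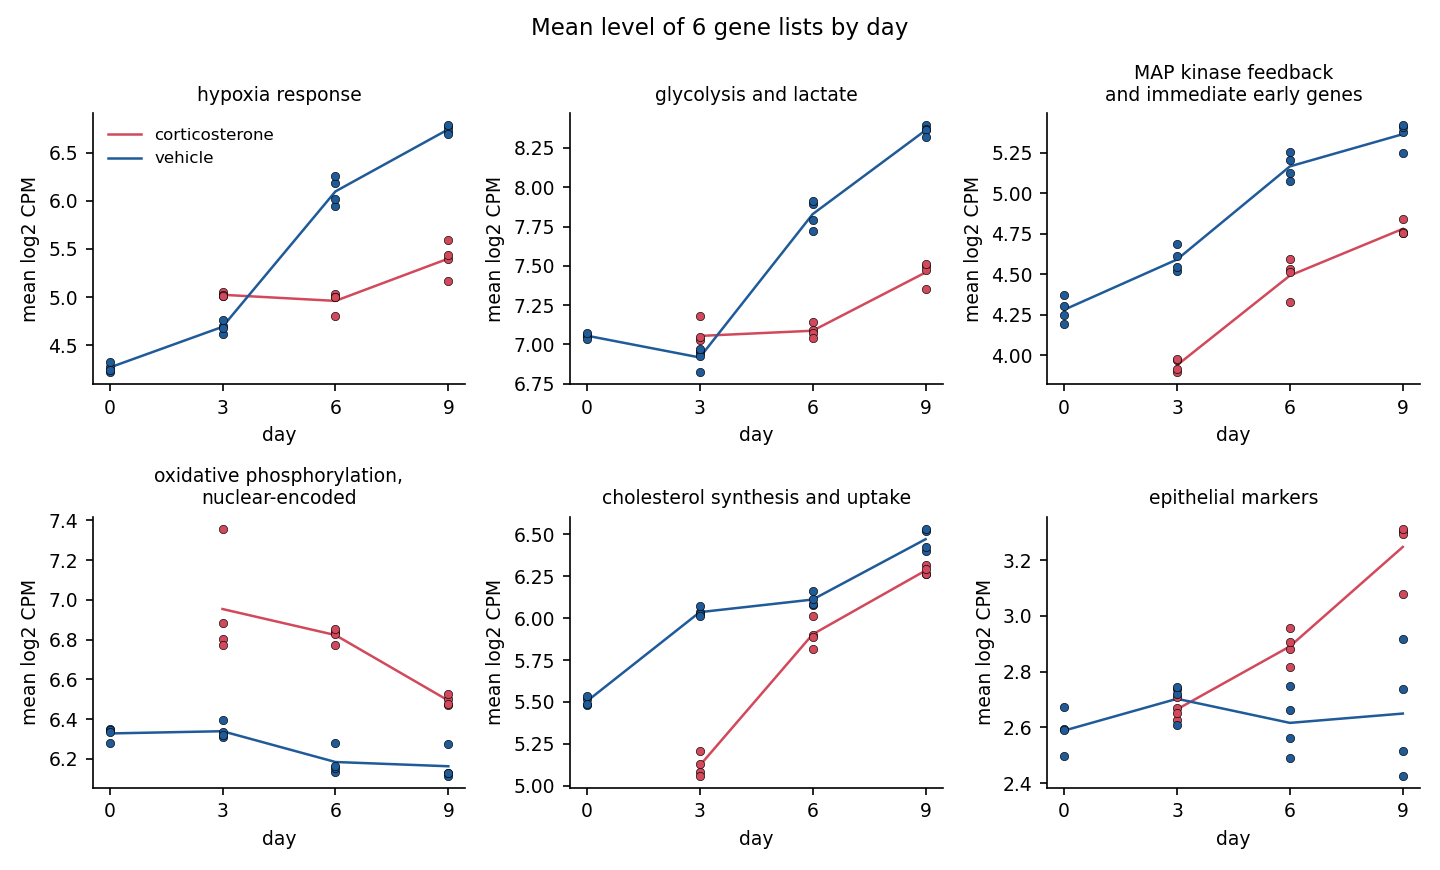
Mean log2 CPM of 6 gene lists by day, with 4 points per group and lines through group means, for corticosterone (days 3, 6 and 9) and vehicle (days 0, 3, 6 and 9). At corticosterone day 9 the hypoxia list (5.40) is below its vehicle day 6 level (6.1), the oxidative phosphorylation list (6.49) is above (6.18), and the cholesterol list (6.28) lies between vehicle day 6 (6.11) and vehicle day 9 (6.47).

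Of 31 glutathione and NRF2 genes 15 rose (48.4%, against 10.5% of all genes) and 1 fell (3.23%, against 10%), with a median of 0.20. Prdx1, a peroxiredoxin, had 9.26, 9.27, 9.37 and 9.33 log2 CPM at corticosterone day 9 and 8.93, 8.95, 9.00 and 8.95 at vehicle day 6 (0.35 ± 0.06, adjusted p = 0.000108). Gsr, glutathione reductase, rose by 0.20 ± 0.04 and Gsto1, an omega class transferase, by 0.28 ± 0.06. Of 15 retinoid genes 5 rose (33.3%) and 2 fell (13.3%). Crabp1, a retinoic acid binding protein, rose by 2.08 ± 0.25 (adjusted p = 2.03e-06, and 0.51 with 5 CPM added), and Rarg, a retinoic acid receptor, fell (-0.46 ± 0.05, adjusted p = 2.44e-07). Of 24 heat shock genes 7 rose (29.2%), with Hspd1 (0.42 ± 0.04, adjusted p = 1.11e-07) and Hspe1 (0.54 ± 0.08, adjusted p = 5.07e-05), the mitochondrial chaperonin and its partner, first by p.

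Of 21 clock genes 8 fell (38.1%, against 10% of all genes) and 1 rose. Per3, a repressor of the clock, had 6.13, 6.19, 6.15 and 6.07 log2 CPM at corticosterone day 9 and 6.76, 6.83, 6.74 and 6.74 at vehicle day 6 (-0.63 ± 0.05, adjusted p = 4.87e-09), with no overlap. Bhlhe40, a clock repressor also on the hypoxia list, was lower (-0.53 ± 0.08, adjusted p = 5.81e-05). The number of falls was 5 without vehicle replicate 5 or without corticosterone replicate 5. The labels used here give days and no clock time of collection.

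For matrix and TGF-beta genes the shares called were near the 10.5% higher and 10% lower of all genes. Of 26 matrix genes 4 rose (2 without vehicle replicate 6 or corticosterone replicate 5) and 4 fell (15.4% each way), among them Dcn, the proteoglycan decorin (0.73 ± 0.10, adjusted p = 5.39e-06), and Tnc, or tenascin C (-0.42 ± 0.05, adjusted p = 5.2e-06). Of 32 TGF-beta and BMP genes 4 rose (12.5%) and 5 fell (15.6%), led by p by Ccn1, a matricellular protein (-0.58 ± 0.07, adjusted p = 1.11e-06), and Inhbb, the activin beta B subunit (-0.58 ± 0.08, adjusted p = 1.96e-05). Of 29 Wnt genes 2 rose (1 without vehicle replicate 3 or 4 or corticosterone replicate 3, 4 or 6) and 7 fell (24.1%), with the ligand Wnt4 (-0.66 ± 0.10, adjusted p = 2.18e-05) and the receptor Fzd1 (0.31 ± 0.05, adjusted p = 4.2e-05) first. Of 26 p53 targets 1 rose (2 without vehicle replicate 6) and 4 fell (15.4%), with Btg2, an antiproliferative gene, lower (-0.69 ± 0.07, adjusted p = 7.34e-08). The unfolded protein and ATF4 list (3 rose and 2 fell of 34) and the lysosome list (4 rose and 6 fell of 36) had 33 and 35 members within 1.5-fold. Falls in the unfolded protein list were 1 without vehicle replicate 5 or 6 or corticosterone replicate 4, 5 or 6, and rises in the lysosome list 2 without vehicle replicate 4 or corticosterone replicate 6.

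Of 14 epithelial markers 5 rose (35.7%, against 10.5% of all genes), 1, Tjp1 of the tight junction, fell and 8 did not pass. The median was 0.34, but 0.12 with 5 CPM added, and with a stricter filter on low values 3 rose and the median was 0.05. The list mean was 3.08 to 3.31 log2 CPM in the corticosterone day 9 libraries and 2.49 to 2.75 in the vehicle day 6 libraries. Krt8 had 2.48, 2.39, 1.92 and 2.43 log2 CPM at corticosterone day 9 and -0.03, 0.16, 0.62 and 0.72 at vehicle day 6 (1.94 ± 0.27, adjusted p = 1.15e-05). Krt7 had 2.72, 2.68, 1.33 and 2.15 log2 CPM at corticosterone day 9 and 0.02, 0.17, 0.37 and 0.04 at vehicle day 6 (2.07 ± 0.32, adjusted p = 3.92e-05). Corticosterone replicate 5 was the lowest of its group in both keratins. Epcam, an epithelial adhesion molecule, rose by 2.23 ± 0.44 (adjusted p = 0.000728) at a low level, and with 5 CPM added it was at 0.48. The call of Tjp1 (-0.17 ± 0.06, adjusted p = 0.0387) was lost without vehicle replicate 3, 5 or 6 and without corticosterone replicate 5 or 6.

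Of 18 measured epididymal secretory and fluid genes, from 43 listed, 5 rose (27.8%, against 10.5% of all genes) and 1 fell. Cftr, the chloride channel of the apical membrane, had 3.23, 3.06, 3.32 and 3.08 log2 CPM at corticosterone day 9 and 2.53, 2.70, 2.59 and 2.48 at vehicle day 6 (0.60 ± 0.10, adjusted p = 0.00014), without overlap, and was at 0.36 with 5 CPM added. Aqp1, a water channel, rose by 0.32 ± 0.09 (adjusted p = 0.00845). The count of rises was 3 without corticosterone replicate 6, and the fall was lost without vehicle replicate 4 or 5 or corticosterone replicate 3, 4 or 5.

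Markers of other cells differed in part. Of 7 listed clear cell markers 1 was measured, Car12, also on the hypoxia list, and it fell (-0.50, adjusted p = 2.23e-05). Of 7 listed basal cell markers 2 were measured, and Krt5 and Krt14 were not. Itga6 rose (0.37, adjusted p = 0.025) and Cldn1 (0.11) did not pass the test. The call of Itga6 was lost without vehicle replicate 3 or 4 or corticosterone replicate 4 or 5. Of 8 measured fibroblast and smooth muscle markers, from 14 listed, 3 rose (37.5%, against 10.5% of all genes). They were Dcn, Acta2 and Col1a2, a collagen I chain (1.28 ± 0.43, adjusted p = 0.0358). Acta2, or smooth muscle actin, rose by 1.72 ± 0.24 (0.27 with 5 CPM added). The call of Col1a2 was lost without each vehicle library in turn and without corticosterone replicate 5 or 6, and with 5 CPM added it was at 0.21. The list mean was 2.74 to 3.16 log2 CPM at corticosterone day 9, 2.33 to 2.53 at vehicle day 6 and 2.78 to 3.27 at vehicle day 9. In all 8 genes the vehicle day 9 mean was above vehicle day 6. The part of the list in the other differences was not tested. Of 15 leukocyte markers 3 were measured, and Csf1r (0.54), Cd68 (-0.15) and Cd14 (0.07) did not pass the test. Of 5 measured endothelial markers 1 rose and 1 fell (20% each way, against 10.5% and 10% of all genes), and 3 did not pass. Egfl7, a secreted endothelial protein, fell (-0.79 ± 0.24, adjusted p = 0.019, and -0.36 with 5 CPM added), a call lost without vehicle replicate 4 or corticosterone replicate 4 or 6. Kdr, an endothelial receptor, averaged -0.76 at corticosterone day 9 and -2.49 at vehicle day 6, both low levels, and its call ended with 5 CPM added (0.10, adjusted p = 0.43).

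The genes that moved most with vehicle culture time, from day 3 to day 9, were placed differently one by one. Sprr1a, a cornified envelope protein, had 8.71, 8.61, 8.77 and 8.37 log2 CPM at corticosterone day 9 and 8.32, 8.35, 8.94 and 8.70 at vehicle day 6. The groups overlapped (0.04 ± 0.18, adjusted p = 0.919), with means of 5.98 at vehicle day 3 and 9.71 at vehicle day 9. Nlrp10, an innate immune gene, had -0.24, 0.47, -0.16 and -0.40 log2 CPM at corticosterone day 9 and 1.98, 1.61, 1.64 and 1.49 at vehicle day 6 (-1.76 ± 0.24, adjusted p = 1.27e-05, and -0.46 with 5 CPM added). Its corticosterone day 9 mean of -0.08 was near the -0.37 of vehicle day 3.

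Among genes that fall with time, Ccdc80, a secreted matrix protein, averaged 5.61 at corticosterone day 9 and 5.50 at vehicle day 6 (adjusted p = 0.585), with 5.98 at vehicle day 3 and 4.56 at vehicle day 9. Svip, a VCP-interacting protein, had 2.37, 1.62, 1.92 and 1.95 log2 CPM at corticosterone day 9 and 0.57, 0.99, 1.02 and 1.06 at vehicle day 6, and rose by 1.05 ± 0.18 (adjusted p = 0.000149, and 0.38 with 5 CPM added). Its mean of 1.96 was near the 1.98 of vehicle day 3. Hpgds, a prostaglandin synthase, averaged 0.77 at corticosterone day 9 and 1.83 at vehicle day 6 (-1.06 ± 0.30, adjusted p = 0.0149), nearer to the 1.00 of vehicle day 9. Its call was lost without vehicle replicate 5 (-0.69, adjusted p = 0.0783). Aloxe3, Raet1e and Cd1d1 differed by -0.19, 0.16 and 0.03 and did not pass the test.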

How the data were processed

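Strand-specific mRNA libraries were made from 500 ng RNA, per the labels' protocols. The deposited values are log2 CPM, normalized by the authors per the table's name. The submitters' processing notes name kallisto, edgeR 3.40.1, limma 3.54.0 and mm10, with no role or order, and the prior count is not given in the sources used here. CPM summed to 949631 to 1059931 per library. The sums were 988856 to 999132 at corticosterone day 9 and 973085 to 979351 at vehicle day 6, so the totals differed between the groups. Only 13.9 to 21.4% of low values fell on steps of 1 read (tolerance 0.02), so no count model was fitted. Genes had to exceed 0 log2 CPM in 4 libraries or more, which removed none. An entry without a symbol (0.0267 to 0.0698% of CPM) was left out.

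The fit used limma 3.58.1 (R 4.3.3) with a mean for each of the 7 groups, all 28 libraries, empirical Bayes with intensity trend and 21 residual degrees of freedom, after tests on simulated data. Benjamini-Hochberg adjusted p under 0.05 over all genes called a gene. Positions are least squares projections on the difference between landmark group means.

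Replicate numbers were not used to pair the libraries. Same-numbered libraries deviated together weakly, with r of 0.016 to 0.218 (median 0.1135, 4 pairs), not all over 0.1. Libraries with different numbers had r of -0.246 to 0.191 (median -0.048, 12 pairs). The 33 pathway and 8 marker lists, the libraries compared and the tests were chosen with earlier results of these data known. Named genes are the 12 largest rises and 12 largest falls (adjusted p under 0.05, mean of at least 1 log2 CPM, groups not overlapping, no predicted gene models), up to 4 members per list by p, the 6 largest rises and falls of vehicle day 9 against day 3 and of corticosterone against vehicle at day 3, and 7 receptor genes and targets. Other genes named (among them Krt18, Ccnd3, Tjp1 and hypoxia genes that did not pass) were chosen after their values were seen. Promoters came from RefSeq (GRCm38.p6), for 10074 of the genes.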

Additional observations from a re-analysis of the deposited data

Results flagged for a closer look

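In each group of 4 libraries the highest and the lowest value was set against the others (Dixon's ratio, over its 95% critical value), for 174 groups of values, and 13 stood apart where chance gives about 1 in 20. Corticosterone day 9 replicate 3 was high in Coro2a (3.11 log2 CPM, others 2.42 to 2.54), in the mean of the retinoid list (4.50, others 4.44 to 4.45), in that of the glutathione list (6.01, others 5.94 to 5.95) and in its position on the corticosterone day 3 axis (0.25, others 0.23). Corticosterone day 9 replicate 4 was low in Eva1a (2.28, others 2.49 to 2.52) and Aldh1a7 (1.59, others 1.84 to 1.88) and high in the MAP kinase and immediate early list (4.84, others 4.76). Corticosterone day 9 replicate 5 was low in the means of the amino acid transporter list (5.97, others 6.04 to 6.05), the lysosome list (7.51, others 7.54) and the epithelial markers (3.08, others 3.29 to 3.31). At vehicle day 6, replicate 4 was high in Aldh1a1 (7.02, others 6.97), replicate 3 was low in Svip (0.57, others 0.99 to 1.06), and replicate 5 was low in the amino acid transporter list (6.01, others 6.11 to 6.12).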

How the results depend on the processing

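With an adjusted p under 0.01, 727 genes were higher and 705 lower at corticosterone day 9 than at vehicle day 6, 2401 were called against vehicle day 9, and 532 between vehicle days 9 and 6. With at least 2-fold change the counts were 94 and 36, 296 and 62, and 281 against vehicle day 3. With a weight per library they were 2399 and 2140, and 2470 between vehicle days 9 and 6. Leaving out each of the 8 libraries gave 972 to 1301 higher and 962 to 1140 lower genes and 10241 to 10390 within 1.5-fold. It gave 3128 to 3706 calls against vehicle day 9, 3836 to 4403 against vehicle day 3 and 713 to 999 between vehicle days 9 and 6. Over these cases the position difference was 0.205 to 0.217 on the corticosterone axis, -0.102 to -0.092 on the day 0 to day 3 axis and -0.115 to -0.089 on the day 3 to day 9 axis. Under the other alternatives these were 0.123 (median over genes) to 0.233, -0.132 to -0.097, and -0.165 (1 CPM added) to -0.095. The replicate block gave 1442 higher and 1354 lower genes as a fixed effect and 1415 and 1342 as a random one, and the pairing by number rests on the numbers alone. The complex IV transcript mt-Co2 was at -0.024 after quantile normalization. The cause of these changes was not tested. Low-level genes lose most of their difference when CPM are added before the log, so their folds depend on the prior count the authors used.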

Other observations

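Some genes at corticosterone day 9 lay outside the whole vehicle course. In 240 genes (1.83% of those tested) all 4 corticosterone day 9 libraries stood above all 16 vehicle libraries of days 0 to 9, and in 68 (0.518%) all stood below. The genes named here were chosen after their values were seen. Tmsb4x, the actin-binding peptide thymosin beta 4, had 6.65 to 6.81 log2 CPM at corticosterone day 9 and 5.27 to 5.73 in the vehicle libraries, after a mean of 8.09 at corticosterone day 6. St3gal6, a sialyltransferase, had 2.71 to 2.91 at corticosterone day 9 and 1.53 to 2.04 in the vehicle libraries, and Bdh1, a ketone body dehydrogenase, had 2.35 to 2.71 and 0.75 to 1.72 in the same order. Among genes below the vehicle course, Wnt4 had 2.56 to 2.86 at corticosterone day 9 and 3.13 to 3.86 in the vehicle libraries. Emilin2, an extracellular matrix glycoprotein, had 2.70 to 3.43 at corticosterone day 9 and 3.62 to 4.67 in the vehicle libraries.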
